A study of Homo sapiens with 12 samples.

Results

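Heat shock chaperones bind unfolded proteins and help them fold, and this account follows 10 of their genes, taken by symbol from the deposited tables: HSPA1A, HSPA1B, HSPA8, HSPH1, BAG3, DNAJB1, HSP90AA1, FKBP4, HSPD1 and HSPE1. They are 10 of the 62656 genes in the count table, and all 10 passed the filter on low counts in each comparison. The series holds 12 RNA-seq libraries in 4 groups of 3, made from the colorectal cancer lines HCT116 and LoVo. The HCT116 groups had overexpression (OE) of the long non-coding RNA SLERT, or were control in columns headed Vector. The LoVo groups had knockdown (KD) of SLERT in columns headed Sh, or were control in columns headed ShNC. The study is about SLERT in liver metastasis, and each manipulation was made in a single line, so that line and kind of manipulation cannot be told apart. No label states the constructs, whether cells were clones or pools, or whether each library had its own culture. The spread that the p-values rest on may therefore be technical.

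HSP70 proteins hold exposed stretches of a client protein in a cycle driven by ATP. J-domain proteins such as DNAJB1 deliver clients and start ATP hydrolysis, and exchange factors such as HSPH1 and BAG3 let ADP go and the client with it. HSP90 takes partly folded clients such as kinases and steroid receptors, with co-chaperones such as FKBP4, while HSPD1 and HSPE1 form the barrel and the lid of the chaperonin of mitochondria. All 10 are protein-coding genes, and their spans are those of GENCODE v29 on GRCh38. HSPA1A (chr6:31815464-31817946, + strand) and HSPA1B (chr6:31827735-31830255, + strand) are neighbours, as are HSPD1 (chr2:197486581-197516737, - strand) and HSPE1 (chr2:197499994-197503457, + strand). HSPA8 lies at chr11:123057489-123063230 (- strand), HSP90AA1 at chr14:102080738-102139699 (- strand) and BAG3 at chr10:119651370-119677819 (+ strand). HSPH1 lies at chr13:31134974-31162388 (- strand), DNAJB1 at chr19:14514770-14529770 (- strand) and FKBP4 at chr12:2794953-2805423 (+ strand). Many of these genes are switched on by the heat shock factor HSF1, which binds repeats of the letters GAA and TTC.

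Depth ran from 14464008 to 17230310 counts per library, and libraries of 1 group correlated at 0.99 to 0.991 in log2 CPM. SLERT has no row of its own in the tables. As background, its ends are the small nucleolar RNAs SNORA5A and SNORA5C and it comes from introns of TBRG4. SNORA5C had 551, 661 and 714 counts in HCT116 OE, against 4, 4 and 8 in HCT116 control. In LoVo it had 11, 14 and 12 counts with KD and 9, 9 and 19 in control, and TBRG4 was not called there (log2 fold change 0.07, SE 0.061; 0.66, SE 0.058, in HCT116), so these rows do not check the knockdown. Of 12 markers of colorectal epithelium, 6 were above 1 FPKM in HCT116 control, with CDX1 and CEACAM5 at 0, and 11 in LoVo control. Of 10 markers of retina, which the submitters' protocol speaks of, 1 was above 1 FPKM in each group (RPE65), and CRX, GNAT1 and RCVRN were at 0 in LoVo.

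The letters near the starts of the members that the results turn on are shown here, since these genes are known targets of HSF1. RefSeq windows on GRCh38.p14, from 250 bases before to 50 after a transcription start, were found for 9 of the 10 members. They are written 5′ to 3′ on the strand of the gene, with capitals marking units of the heat shock element. The HSP90AA1 window lies at chr14:102086995-102087294 (- strand, the second of its 2 starts), HSPA8 at chr11:123062087-123062386 (- strand), HSPD1 at chr2:197499791-197500090 (- strand, the second of its 2 starts), HSPA1B at chr6:31827488-31827787 (+ strand) and BAG3 at chr10:119651130-119651429 (+ strand).
HSP90AA1: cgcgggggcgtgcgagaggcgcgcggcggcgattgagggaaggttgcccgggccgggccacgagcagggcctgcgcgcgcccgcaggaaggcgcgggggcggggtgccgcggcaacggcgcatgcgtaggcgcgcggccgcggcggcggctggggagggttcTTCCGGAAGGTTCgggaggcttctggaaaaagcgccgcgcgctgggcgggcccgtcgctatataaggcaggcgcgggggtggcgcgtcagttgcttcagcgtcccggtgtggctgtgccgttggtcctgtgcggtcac
HSPA8: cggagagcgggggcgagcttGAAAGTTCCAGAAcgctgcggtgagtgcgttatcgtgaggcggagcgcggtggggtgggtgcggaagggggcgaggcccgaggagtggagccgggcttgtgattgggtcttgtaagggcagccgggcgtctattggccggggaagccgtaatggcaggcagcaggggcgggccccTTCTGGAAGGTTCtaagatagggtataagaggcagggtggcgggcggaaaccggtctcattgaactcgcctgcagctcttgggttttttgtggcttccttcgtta
HSPD1: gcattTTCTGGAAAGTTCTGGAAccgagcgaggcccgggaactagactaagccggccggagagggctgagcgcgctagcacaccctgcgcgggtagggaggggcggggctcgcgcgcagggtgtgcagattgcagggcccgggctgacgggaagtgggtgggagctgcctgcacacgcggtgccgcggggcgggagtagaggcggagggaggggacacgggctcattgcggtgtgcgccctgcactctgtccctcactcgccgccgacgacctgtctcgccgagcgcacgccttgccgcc
HSPA1B: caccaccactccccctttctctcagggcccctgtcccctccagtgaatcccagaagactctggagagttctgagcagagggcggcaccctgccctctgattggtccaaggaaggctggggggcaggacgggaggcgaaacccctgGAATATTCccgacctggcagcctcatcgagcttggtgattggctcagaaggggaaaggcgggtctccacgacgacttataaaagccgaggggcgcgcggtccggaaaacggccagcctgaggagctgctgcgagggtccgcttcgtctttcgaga
BAG3: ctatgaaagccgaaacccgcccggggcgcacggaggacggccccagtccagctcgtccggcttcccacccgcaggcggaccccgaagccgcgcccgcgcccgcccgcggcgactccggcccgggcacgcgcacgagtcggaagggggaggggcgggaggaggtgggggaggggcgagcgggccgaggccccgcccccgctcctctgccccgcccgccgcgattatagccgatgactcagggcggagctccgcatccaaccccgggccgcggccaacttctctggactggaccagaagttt

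The element searched was 3 alternating units, GAANNTTCNNGAA or TTCNNGAANNTTC, which are each other's reverse complement and so cover both strands. HSPA8 held it at -230 and again at -55 from its start. HSP90AA1 held it at -88, with a separate pair of units at -68 that is left in lower case. HSPD1 held a run of 4 alternating units, 18 bases long, that began at -245. HSPD1 and HSPE1 lie head to head, and this run sits 294 to 311 bases before the start of HSPE1, outside the window of HSPE1.

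The shorter form, GAANNTTC or TTCNNGAA, is contained in the longer one, and each reads the same on both strands. HSPA1A held 1 copy at -106 and HSPA1B 1 copy at -105, and their windows were identical at 277 of 299 aligned bases (92.6%). DNAJB1 held 2 copies before the second of its 3 starts and 1 just after the third. Neither form was in the windows of HSPH1, HSPE1 or BAG3. Only exact units inside these windows were searched, so units with other letters or farther away are not counted. By gene, the 3-unit form was in 3 of 9 members (33.3%) and in 0.608% of all 27305 genes in the table, and the 2-unit form was in 6 of 9 (66.7%) and in 16.2% of all genes.

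**Figure D1:**
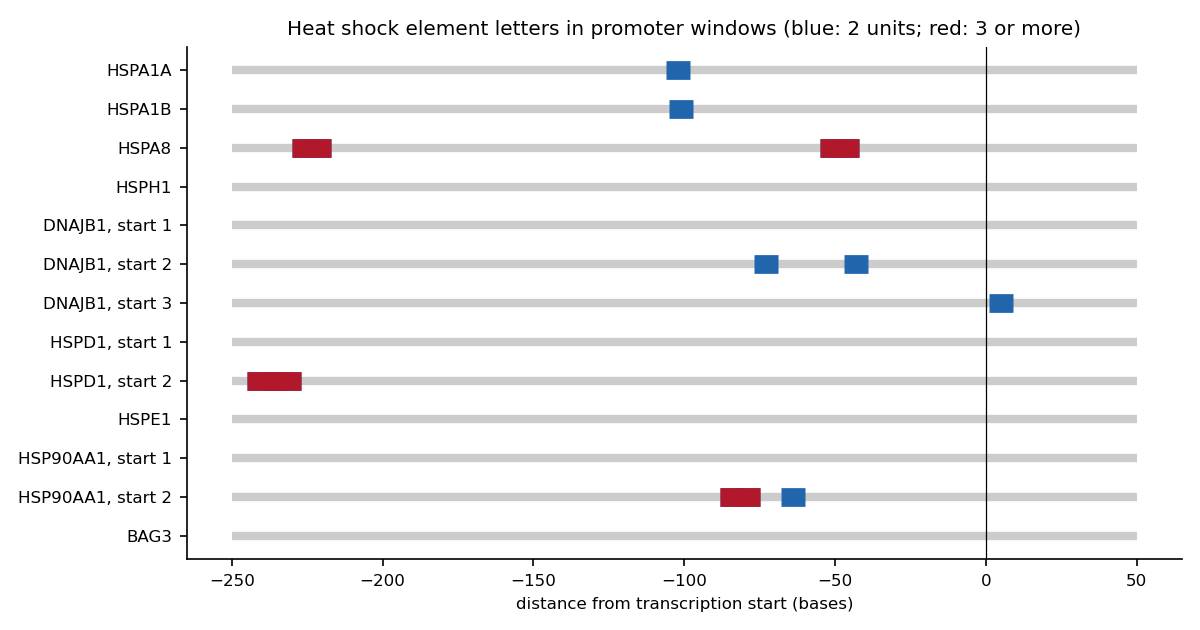
Heat shock element letters in the promoter windows of 9 members, by distance in bases from each transcription start (x axis). Red blocks are 3 or more alternating units and blue blocks are 2 units; red blocks appear for HSPA8 at 2 places, the second HSPD1 start and the second HSP90AA1 start, and HSPH1, HSPE1 and BAG3 have none.

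Levels per gene length, in the deposited FPKM, spanned over 2 orders of magnitude among the members. In HCT116 control, HSP90AA1, the stress-inducible cytosolic HSP90, stood highest at 730.4 ± 22.4 FPKM (SD, n = 3), followed by HSPA8, the constitutive cytosolic HSP70, at 301 ± 3.14 FPKM and HSPD1 at 202 ± 5.77 FPKM. BAG3 (47 ± 4.01 FPKM) and FKBP4 (46.3 ± 0.703 FPKM) overlapped in their libraries, as did HSPA1B (23.4 ± 2.17 FPKM) and DNAJB1 (23.3 ± 0.379 FPKM), with HSPH1 between the pairs at 29.2 ± 1.28 FPKM. HSPE1 and HSPA1A were lowest, and how their reads were assigned was not tested. The places of HSPD1 and DNAJB1 turn on their length, which is 7629 bases behind the deposited FPKM of HSPD1 and 4245 exonic bases in GENCODE v29, and 8188 and 3672 bases for DNAJB1. With the lengths of GENCODE v29, HSPD1 came to 364 ± 10.4 FPKM in HCT116 control, above HSPA8, and DNAJB1 to 52.1 ± 0.845 FPKM, above BAG3, FKBP4 and HSPH1.

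In LoVo control the order began with HSPA8 at 331 ± 2.43 FPKM, then HSPD1 at 218 ± 6.86 FPKM, followed by HSP90AA1 at 140.2 ± 3.66 FPKM. FKBP4 (33 ± 0.493 FPKM), BAG3 (21.4 ± 1.92 FPKM) and DNAJB1 (12.1 ± 0.599 FPKM) followed without overlap between neighbours. HSPA1B (10.6 ± 0.478 FPKM) and HSPH1 (10.4 ± 0.59 FPKM) overlapped. The same 2 genes, HSPE1 and HSPA1A, closed the order in this line. With the lengths of GENCODE v29, HSPD1 led the order at 391 ± 12.3 FPKM and DNAJB1, at 27.1 ± 1.34 FPKM, stood above BAG3. Comparisons of 1 gene between groups do not depend on its length.

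**Figure D2:**
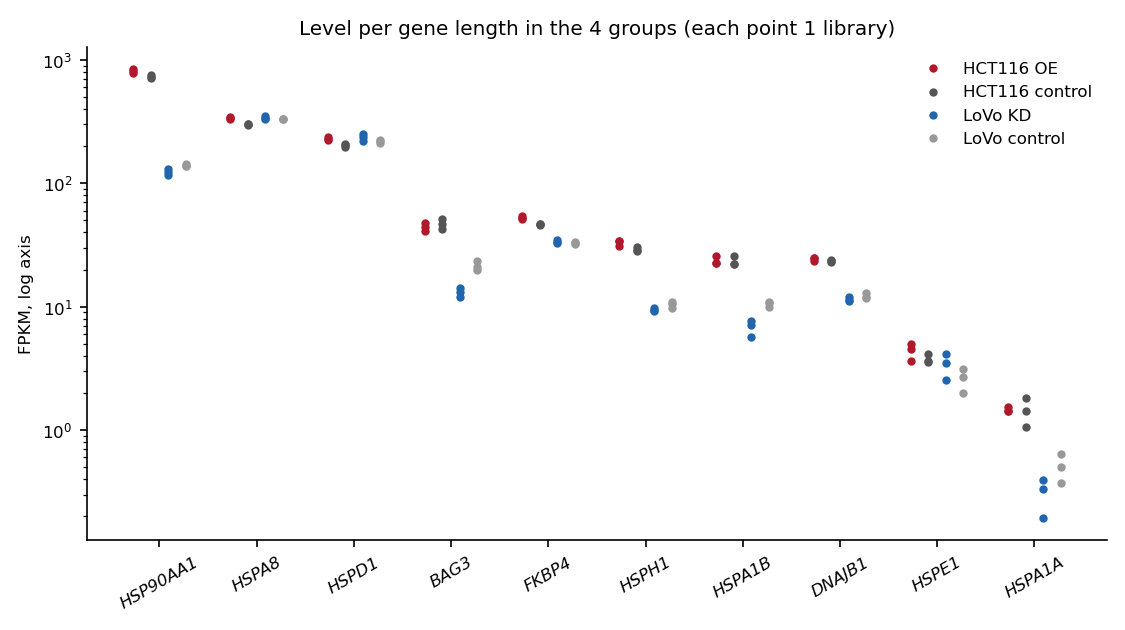
FPKM of the 10 members (y axis, log scale), each point 1 library, in the 4 groups, with genes ordered by their mean in HCT116 control. HSP90AA1 lies at 785 to 837 FPKM in HCT116 OE and 712 to 755 FPKM in HCT116 control, against 116 to 129.9 FPKM in LoVo KD and 138 to 144 FPKM in LoVo control, whereas HSPA8 and HSPD1 lie at like levels in both lines.

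Set against LoVo control in 1 fit over all libraries, 8 of the 10 members were higher in HCT116 control and 0 lower (adjusted p under 0.05, edgeR's quasi-likelihood test). Of all 18199 genes tested, 76.6% were called, 38.7% higher and 37.9% lower in HCT116 control, so most genes were called between the lines. The largest difference was that of HSP90AA1, with a log2 difference of 2.48 (SE 0.049), or 5.6-fold. HSPA1A (1.61, SE 0.28), HSPH1 (1.59, SE 0.058), HSPA1B (1.25, SE 0.09), BAG3 (1.24, SE 0.078) and DNAJB1 (1.05, SE 0.057) were more than 2-fold higher. HSPE1 (0.65, SE 0.19) and FKBP4 (0.59, SE 0.052) differed less. HSPA8 (-0.03, 95% interval -0.12 to 0.06) and HSPD1 (0.00, -0.1 to 0.1) were not called, and HSPA8 was lower in HCT116 at -0.14 (edgeR adjusted p = 0.00574; 0.00574 to 0.775 over 12 alternatives) when libraries were scaled by total counts, which shifts the median of all genes by -0.1. Among lists of other chaperone genes, calls were mostly higher for HSP90 and co-chaperones (13 of 15 higher in HCT116 control, 1 lower) and for the cytosolic chaperonin TRiC with prefoldin (11 of 14 higher, 2 lower).

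HCT116 with SLERT OE showed small rises in 3 of the 10 members, HSPD1, FKBP4 and HSPA8, by 1.14- to 1.16-fold. Of the 10, 0 were called lower, and 5 had an unadjusted p under 0.05, against 14.4% of all genes tested. Calls were rare in this comparison, at 0.914% of 15980 genes tested, with 0.507% called higher and 0.407% lower. The split of 81 higher and 65 lower calls was 196 and 85 with DESeq2 and 51 and 103 under total-count scaling. The median log2 fold change of the members was 0.19, against 0.00 over all genes tested, and 9 of 10 were positive, against 7902 of 15980. The CPM of single genes are counts scaled to the TMM-adjusted library size, with TMM factors estimated within each line. They are therefore compared within a line only. In this bulk RNA, a change in RNA per cell and a change in the share of cells cannot be told apart.

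HSPD1, the HSP60 barrel subunit, had 1735, 1825 and 1756 CPM in HCT116 OE, against 1492, 1568 and 1547 CPM in HCT116 control. All 3 OE libraries lay above all 3 controls, and HSPD1 rose with a log2 fold change of 0.21 (SE 0.047, edgeR adjusted p = 0.0285). FKBP4, the immunophilin FKBP52 that joins HSP90 in steroid receptor complexes, had 284, 273 and 271 CPM in HCT116 OE, against 240.3, 232 and 241 CPM in control. It rose by the same amount (0.21, SE 0.052, edgeR adjusted p = 0.0394), again with no overlap. HSPA8 had 1623, 1661 and 1700.4 CPM in HCT116 OE, against 1472, 1434 and 1453 CPM in control. It rose with a log2 fold change of 0.19 (SE 0.046, edgeR adjusted p = 0.0389).

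None of these calls held in every alternative. Without OE replicate 2, OE replicate 3, control replicate 1 or control replicate 2, none of the 10 members was called, while 43, 37, 37 and 38 genes of the whole table were. Without control replicate 3 the table gave 287 calls and 2 members, HSPD1 and FKBP4. Without OE replicate 1 the 2 members called were HSPD1 and HSPA8. DESeq2 called 5 members, with HSP90AA1 and HSPH1 added, and edgeR on total counts called 0. The fold changes themselves stayed at 0.17 to 0.23 for the 3 genes over 12 alternatives, and the adjusted p ran up to 0.206.

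HSP90AA1 was at 4194, 4298 and 4063 CPM in HCT116 OE, against 3674, 3807 and 3625 CPM in control, without overlap. Its log2 fold change was 0.18 (SE 0.045) and missed the threshold (edgeR adjusted p = 0.0522; 0.00121 to 0.175 over 12 alternatives). HSPH1, an HSP110 exchange factor for HSP70, was at 287, 286 and 266 CPM in HCT116 OE, against 242, 254 and 235 CPM in control, also without overlap (0.2, SE 0.054, edgeR adjusted p = 0.0718). Counting DNAJB1 (0.08, SE 0.053), 6 of the 10 members had groups that did not overlap, against 19.1% of all genes tested.

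HSPA1B, BAG3, HSPA1A and HSPE1 were not called in HCT116. HSPA1B, the better counted of the inducible HSP70 pair, had 64.9, 57.6 and 58.4 CPM in HCT116 OE, against 55.4, 64.5 and 55.9 CPM in control. The libraries overlapped (log2 fold change 0.04, 95% interval -0.11 to 0.19). BAG3, which couples HSP70 to small heat shock proteins and to selective autophagy, had 132, 114 and 123 CPM in HCT116 OE, against 139, 128 and 117 CPM in control (-0.06, -0.19 to 0.08). HSPA1A (0.05, -0.4 to 0.5) and HSPE1 (0.23, -0.08 to 0.54) had wide intervals, at 41 to 75 and 106 to 138 counts per library.

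**Figure D3:**
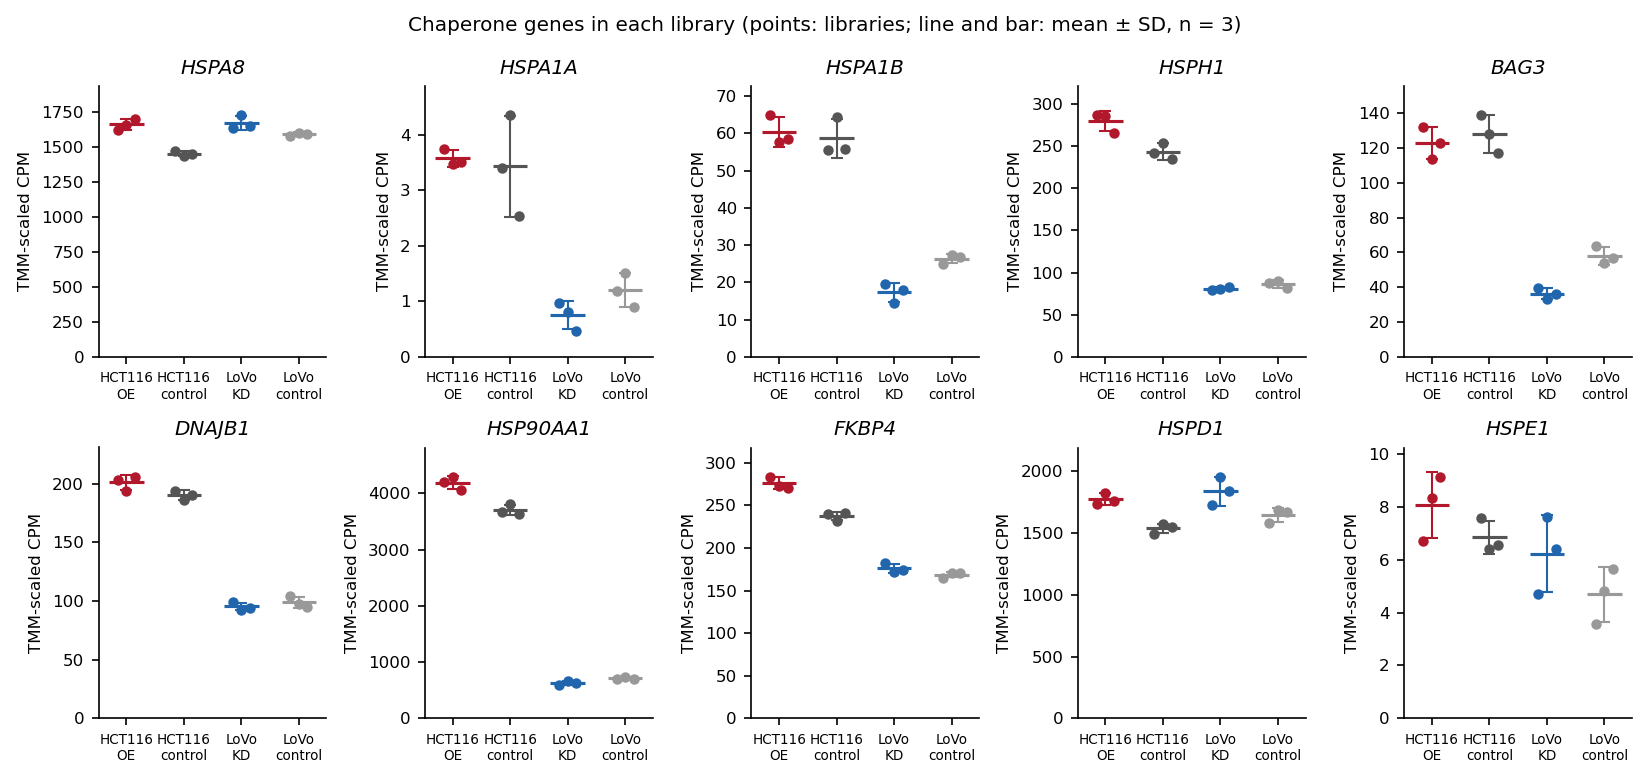
TMM-scaled CPM of each member (y axes, from 0, 1 panel a gene) in the 3 libraries of HCT116 OE, HCT116 control, LoVo KD and LoVo control, with the mean and SD as line and bar. TMM factors were estimated within each line, so heights are compared within a line only. BAG3 lies at 33.2 to 39.6 CPM in LoVo KD, below the 53.8 to 63.7 CPM of LoVo control, while its groups overlap in HCT116.

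In LoVo with SLERT KD, BAG3 and HSPA1B fell to 0.624 and 0.657 of their control level, HSP90AA1 fell slightly and HSPD1 rose slightly, so that 1 of 10 members was called higher and 3 lower. In this line 26.3% of 16253 genes tested were called, 12.6% higher and 13.7% lower (2050 genes higher and 2228 lower, against 1586 and 2611 under total-count scaling). The median log2 fold change of the members was -0.07, against 0.00 over all genes, and 6 of 10 had groups that did not overlap, against 39.7% of all genes.

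BAG3 had 39.6, 33.2 and 36.1 CPM in LoVo KD, against 63.7, 53.8 and 56.7 CPM in LoVo control. All 3 KD libraries were below all 3 controls, and BAG3 fell, with a log2 fold change of -0.68 (SE 0.084, 0.624-fold, edgeR adjusted p = 2.47e-06). HSPA1B had 19.6, 14.5 and 17.9 CPM in LoVo KD, against 25, 27.3 and 26.8 CPM in control. It fell likewise without overlap, with a log2 fold change of -0.61 (SE 0.11, 0.657-fold, edgeR adjusted p = 0.000205). Both calls held in every alternative, with an adjusted p of at most 0.000135 over 13 alternatives for BAG3 and of at most 0.00291 over 12 for HSPA1B.

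HSPA1A, whose protein differs little from that of HSPA1B, had 14, 13 and 7 counts in LoVo KD, against 18, 23 and 13 in control. These few counts gave -0.68 (SE 0.4) and no call. The genes share 71.3% of the 50-base stretches of HSPA1A, so that reads could be assigned to either. HSPA1B held 95.8 ± 1.45% of the summed counts of the pair in LoVo KD and 95.6 ± 1.04% in control (SD, n = 3). Summed into 1 row, the pair fell (log2 fold change -0.61, edgeR adjusted p = 0.000159). HSPA1B also shares 36.5% of its exonic bases with the transcript AL671762.1, which had 0 counts.

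HSP90AA1 had 600.0, 670.5 and 631 CPM in LoVo KD, against 694, 728 and 703 CPM in control. It fell without overlap, with a log2 fold change of -0.16 (SE 0.055, edgeR adjusted p = 0.0344). HSPD1 had 1722, 1956 and 1836 CPM in LoVo KD, against 1583, 1686 and 1669 CPM in control, and rose without overlap by 0.16 (SE 0.054, edgeR adjusted p = 0.0305). Both calls were lost without some single libraries. For HSPD1 these were KD replicate 2 or 3 and control replicate 1 or 3, with an edgeR adjusted p of up to 0.108 over 13 alternatives, and total-count scaling lost the call as well. For HSP90AA1 they were KD replicate 1 or 3 and control replicate 2 or 3, with an edgeR adjusted p of up to 0.132.

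HSPE1, the HSP10 lid of the chaperonin, stood at 4.7, 7.61 and 6.4 CPM in LoVo KD, against 3.57, 4.83 and 5.66 CPM in control. The groups overlapped, with 0.42 (95% interval 0.01 to 0.83) and no call (edgeR adjusted p = 0.126; 0.0298 to 0.442 over 13 alternatives). HSPA8 (0.07, -0.03 to 0.17), FKBP4 (0.06, -0.06 to 0.18), DNAJB1 (-0.05, -0.18 to 0.09) and HSPH1 (-0.1, -0.24 to 0.04) were not called in LoVo either. Beside these changes, 10 of the 12 colorectal epithelial markers were called in LoVo, 4 higher and 6 lower, with 26.3% of all genes tested called. Their summed level was 1633 to 1723 FPKM in LoVo KD and 1846 to 1939 FPKM in control. Of 7 fibroblast and endothelial markers, 0 were above 1 FPKM in LoVo KD and 1 in control. Among the 7, 1 was called lower, with 13.7% of all genes tested called lower. Their sum was 0.372 to 0.576 FPKM in LoVo KD and 2.11 to 2.29 FPKM in control (DCN and CDH5 at 0 in LoVo KD, CDH5 in control). The part of either in the chaperone changes was not tested.

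**Figure D4:**
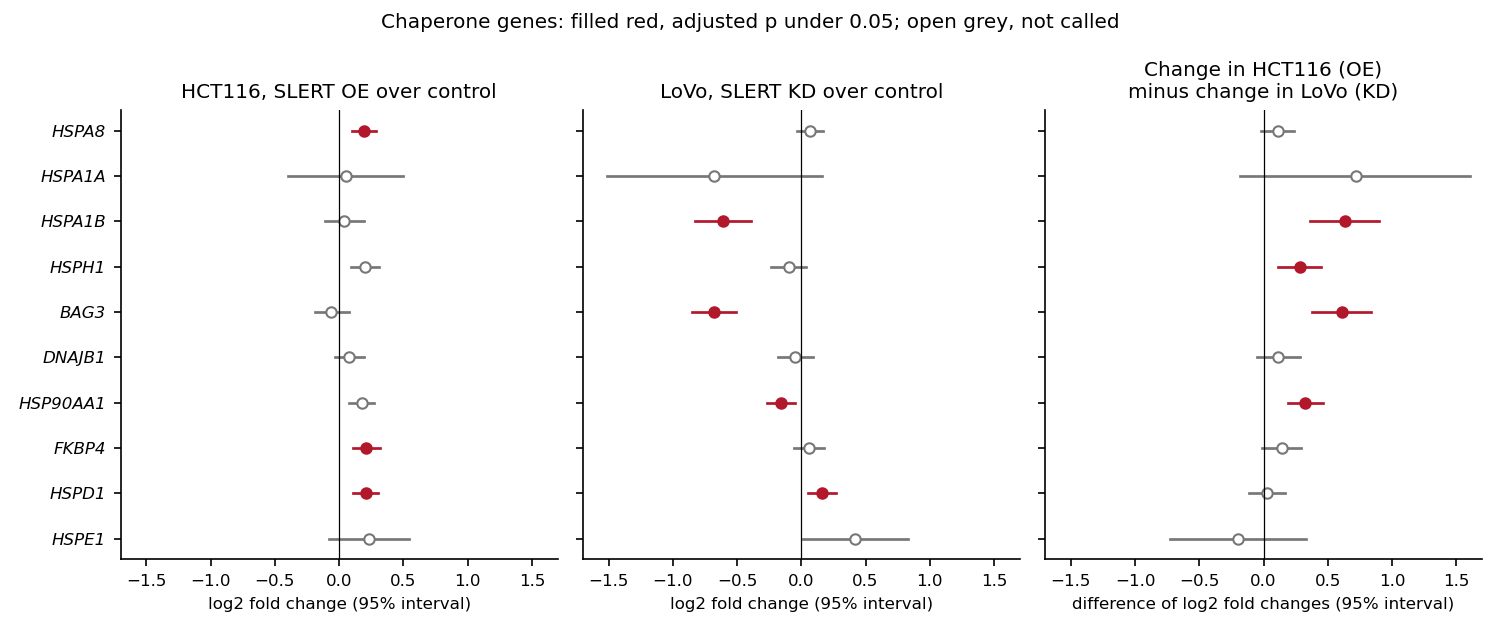
Log2 fold change of each member with its 95% interval (x axes), for SLERT OE over control in HCT116, SLERT KD over control in LoVo, and the change in HCT116 minus the change in LoVo. Filled red points passed an adjusted p of 0.05; BAG3 (-0.68) and HSPA1B (-0.61) stand far below 0 in LoVo, and 4 members passed in the difference.

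The test of the difference, the change with OE in HCT116 minus the change with KD in LoVo, called 4 of the 10 members, all higher, with 11.6% of 18199 genes called, 6.03% higher and 5.62% lower. HSPA1B differed by 0.63 (SE 0.13, edgeR adjusted p = 0.00181) and BAG3 by 0.61 (SE 0.11, edgeR adjusted p = 0.000526). HSP90AA1 differed by 0.32 (SE 0.066, edgeR adjusted p = 0.00157) and HSPH1 by 0.28 (SE 0.081, edgeR adjusted p = 0.0224). All 4 calls held in each alternative. No difference between the lines was detected for HSPD1 (0.03, 95% interval -0.11 to 0.17), HSPA8 (0.11, -0.02 to 0.24) or FKBP4 (0.14, -0.01 to 0.29).

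The sum of both changes, added after the values of HSPD1 were seen, is far from 0 where a gene moved the same way in both lines or far in 1 of them. HSPD1 (0.36, SE 0.069, edgeR adjusted p = 0.000588), HSPA8 (0.26, SE 0.062, edgeR adjusted p = 0.00512) and FKBP4 (0.27, SE 0.073, edgeR adjusted p = 0.0117) were called higher, in each of 17 alternatives. That is 3 of 10 members called higher, with 6.94% of all genes called higher, 7.61% lower and 14.6% either way. Total-count scaling gave 807 genes higher and 1755 lower, against 1263 and 1385. BAG3 (-0.74, SE 0.11) and HSPA1B (-0.57, SE 0.13) were called lower, with changes that were called in LoVo and not in HCT116. Of the 3 called higher, HSPA8 and FKBP4 were called in HCT116 and not in LoVo, and HSPD1 was called in each line.

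Ratios within a library compared partner genes, with an exact two-sided permutation test over 3 against 3 libraries that cannot go below p = 0.1, and 8 tests in all. The inducible HSP70 pair, HSPA1A plus HSPA1B, came to 2.1 ± 0.363% of the FPKM of HSPA8 in LoVo KD and 3.34 ± 0.141% in LoVo control (SD, n = 3, exact p = 0.1, adjusted 0.4). HSP90AA1 came to 15.8 ± 1.05% of HSP90AB1, the constitutive HSP90, in LoVo KD and 17.3 ± 0.472% in control (exact p = 0.1, adjusted 0.4), also without overlap. In HCT116 the share of the HSP70 pair was 7.43 ± 0.641% with OE and 8.26 ± 0.89% in control (exact p = 0.3). That of HSP90AA1 was 41 ± 1.24% with OE and 39.5 ± 1.19% in control (exact p = 0.3). Of the 50-base stretches of HSPA1A and HSPA1B, 71.3% and 73.5% occur in other genes, against 8.2% for HSPA8. How shared reads were counted was not tested, so the level of the HSP70 pair is uncertain.

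The lid and barrel of the chaperonin are made in like amounts as proteins, and their RNA counts were far apart here. HSPE1 reached 1.41 ± 0.247% of the FPKM of HSPD1 in LoVo KD and 1.19 ± 0.237% in LoVo control (exact p = 0.4), and 1.9 ± 0.283% in HCT116 OE and 1.87 ± 0.223% in HCT116 control (exact p = 0.9). Its exons share 281 bases with HSPD1 on the other strand and 192 bases with the readthrough gene HSPE1-MOB4 on the same strand, which had 0 counts in the 12 libraries. With the lengths of GENCODE v29 the shares were 0.723 ± 0.127% in LoVo KD and 0.609 ± 0.121% in LoVo control, and 0.977 ± 0.145% in HCT116 OE and 0.959 ± 0.114% in HCT116 control. How the reads of HSPE1 were assigned was not tested, so its level is uncertain.

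Of 83 other chaperone genes, 73 were tested in HCT116 and 0 were called by edgeR, while 29 had an unadjusted p under 0.05, against 14.4% of all genes tested. DESeq2 called 10 of them, all 10 higher, against 1.76% of all genes called and 1.23% called higher by DESeq2. Of the 73, 60 were positive, with a median log2 fold change of 0.1. HSP90AB1 (0.12, SE 0.043), HSPB1, the small heat shock protein HSP27 (0.2, SE 0.057), and the transcription factors HSF1 (0.04, SE 0.068) and HSF2 (0.05, SE 0.079) were among those not called. The calls of DESeq2 took in HSP90AB1, HSPB1, the J-domain protein DNAJA1 (0.16, SE 0.053, with edgeR) and the mitochondrial HSP70 HSPA9 (0.15, SE 0.048).

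In LoVo, 76 of the 83 were tested, and 8 were called higher and 8 lower, with a median of 0.03 (0.00 under total-count scaling). Over all genes 12.6% were called higher and 13.7% lower, so the count over the 76 is near the background, and the values that follow describe single genes. Among mitochondrial chaperones, 3 of 11 rose and 1 fell. HSPA9, which pulls proteins into mitochondria, had 1120.2, 1199.6 and 1155 CPM in LoVo KD, against 859.6, 899 and 879 CPM in control (log2 fold change 0.4, SE 0.051, edgeR adjusted p = 4.48e-06). GRPEL2, a nucleotide exchange factor of mitochondrial HSP70, rose by 0.53 (SE 0.085) and CLPX, the unfolding subunit of the ClpXP protease, by 0.25 (SE 0.065), while CLPB, a mitochondrial disaggregase, fell (-0.23).

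Among HSP90 and its co-chaperones, 1 of 15 rose and 4 fell in LoVo, with 12.6% of all genes called higher and 13.7% lower. FKBP5, a glucocorticoid-responsive immunophilin related to FKBP4, had 20.2, 16.3 and 19.9 CPM in LoVo KD, against 13.3, 13.4 and 10.5 CPM in control (0.6, SE 0.12, edgeR adjusted p = 0.000907). FKBP8, an immunophilin anchored at mitochondria (-0.34, SE 0.071), and STUB1, the ubiquitin ligase CHIP (-0.34, SE 0.08), fell, as did STIP1 (-0.16), which links HSP70 to HSP90, and UNC45A (-0.23), a myosin co-chaperone.

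Of 14 J-domain proteins, 2 rose and 2 fell in LoVo, with 12.6% of all genes called higher and 13.7% lower. DNAJA1, a partner of cytosolic HSP70 (-0.27, SE 0.066), and DNAJC5, a protein of secretory vesicles (-0.26, SE 0.064), fell, while DNAJC3 of the endoplasmic reticulum (0.33, SE 0.085) and ribosome-bound DNAJC2 (0.26) rose. HSPA13 (0.26, SE 0.082) was the single call among 12 tested genes of the HSP70 list and was not called without KD replicate 2 or 3 or control replicate 1; the prefoldin subunit VBP1 (0.34, SE 0.089) was the single call among 14 of TRiC and prefoldin.

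CRYAB, a small heat shock protein, was called lower in LoVo on 2, 3 and 1 counts with KD, against 22, 25 and 12 in control (-3.23, 95% interval -4.4 to -2.07). HSPB1 was at 40.8, 35.6 and 34.7 CPM in LoVo KD, against 39.4, 43.7 and 46.3 CPM in control, and overlapped (-0.22, SE 0.086, edgeR adjusted p = 0.0615; 0.0136 to 0.281 over 13 alternatives). HSF1 (-0.12, SE 0.078) and HSF2 (0.23, SE 0.11) were not called there. Their list also holds HSF4, HSBP1, HSBP1L1 and HSF2BP. Of the 6 tested genes of this list, 0 were called by edgeR or DESeq2 in LoVo. For 1 of the 6 the unadjusted p was under 0.05, against 37.4% of all genes tested. HSPA6, a strictly heat-inducible HSP70, was too low to test, with 1 to 9 counts in each of the 12 libraries.

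**Figure D5:**
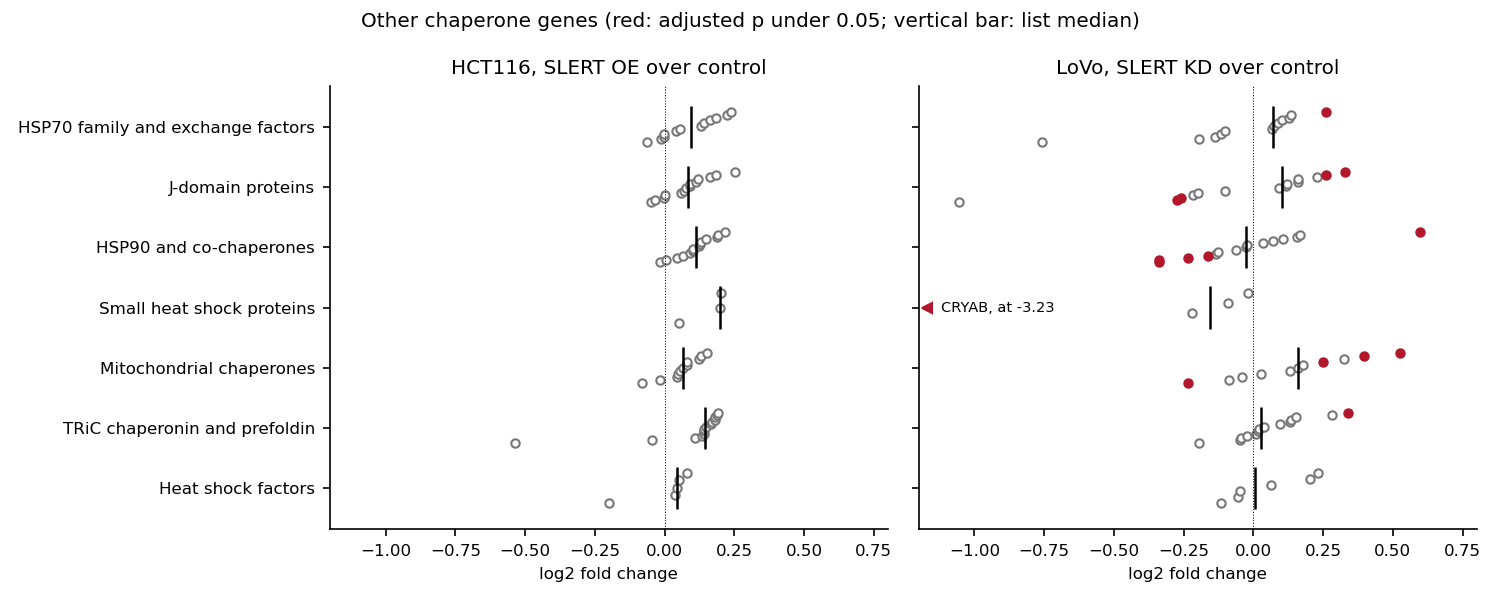
Log2 fold changes (x axes) of the other chaperone genes by list, for SLERT OE over control in HCT116 and SLERT KD over control in LoVo; red points passed an adjusted p of 0.05 and bars mark list medians. No gene is red in HCT116, and 8 are red on each side of 0 in LoVo, with CRYAB at -3.23 drawn as an arrow.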

How the data were processed

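RNA was extracted with Trizol and libraries were made with an Illumina TruSeq kit, per the labels' protocols; the same text speaks of retinas, whereas the other labels name cell lines. HISAT2 2.1.0 and GRCh38 are named in the submitters' processing notes, and no source used here names the counter, its annotation or its strand setting. The authors deposited whole-number read counts per gene, not normalised, and FPKM values, which equal the count per length and column total. The assignment of the columns headed as vector to HCT116 control rests on the heading and on the series design, with overexpression in HCT116. No title ties these column numbers to samples.

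Counts were tested with edgeR 4.0.16 (TMM, filterByExpr, quasi-likelihood F test, Benjamini-Hochberg over all genes tested, calls at an adjusted p under 0.05) in R 4.3.3, within each line and over all 12 libraries for comparisons between lines. Alternatives were DESeq2 1.42.0, other scalings, no filter, another set of libraries, and leaving out each library. Members and lists were chosen with earlier results of these data known. The text names all members, up to 3 called genes per list and line with the smallest p, every other called gene of the lists (chosen after its values were seen), and HSF1, HSF2, HSPA6, HSP90AB1 and HSPB1. Overlaps with other genes are from GENCODE v29.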

Additional observations from a re-analysis of the deposited data

Results flagged for a closer look

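For 4 members the change with SLERT OE in HCT116 differed from the change with SLERT KD in LoVo by the edgeR test of that difference over all 12 libraries. On the log2 scale the difference was 0.63 for HSPA1B (edgeR adjusted p = 0.00181), 0.61 for BAG3 (edgeR adjusted p = 0.000526), 0.32 for HSP90AA1 (edgeR adjusted p = 0.00157) and 0.28 for HSPH1 (edgeR adjusted p = 0.0224). For HSPA1B, HSP90AA1 and HSPH1 the estimates lay on opposite sides of 0 in the 2 lines. With OE in HCT116 and KD in LoVo they were 0.04 and -0.61 for HSPA1B, 0.18 and -0.16 for HSP90AA1, and 0.2 and -0.1 for HSPH1. None of these genes was called in HCT116, and HSPH1 was not called in LoVo either. For BAG3 both estimates were below 0, at -0.06 with OE in HCT116 (95% interval -0.19 to 0.08, not called) and -0.68 with KD in LoVo.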

How the results depend on the processing

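In HCT116, 146 genes and 3 members were called; DESeq2 called 281 (196 higher, 85 lower, against 81 and 65) and 5 members, no filter 256 and 5, total counts only 0 members (51 genes higher, 103 lower), and all 12 libraries in 1 fit 1 member. Leaving out 1 library gave 37 to 287 genes and 0 to 2 members in HCT116, and 2769 to 4813 genes and 2 to 4 members in LoVo (2769 and 2 without control replicate 3, 2809 without control replicate 1, 2 members without KD replicate 3). Members called for the difference stayed at 4 and for the control lines at 8 when 1 library was left out. For the sum, DNAJB1 (-0.023) and HSP90AA1 (-0.037) turned negative under total counts only. Between the control lines, HSPD1 was at 0.002 with DESeq2 and 0.001 with no filter. Signs also turned without 1 library, with ranges of -0.117 to 0.261 for HSPA1A, -0.016 to 0.116 for HSPA1B, -0.113 to 0.007 for BAG3, -0.029 to 0.112 for HSF1, -0.069 to 0.039 for HSPA13, -0.014 to 0.121 for FKBP8 and -0.048 to 0.022 for CLPX in HCT116, -0.022 to 0.056 for HSP90AA1 in the sum, and -0.028 to 0.029 for HSPD1 between control lines. The log2 ratio of HSPE1 to HSPD1 ran from -0.082 to 0.135 in HCT116, and that of the HSPA1B share from -0.008 to 0.007 in HCT116 and -0.01 to 0.011 in LoVo. The cause of these moves was not tested.

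The difference had 1097 genes higher and 1022 lower, and 1289 and 842 under total-count scaling. With the replicate number as a block, LoVo gave 5588 genes and 4 members called, against 4278 and 4 without it. Same-numbered LoVo libraries deviated together at r = 0.0685, 0.0852 and 0.0164, and each library correlated best with its own number. These weak correlations do not settle whether the numbers mark pairs, and the main fit did not pair the libraries. The block changed no member call. With it the edgeR adjusted p in LoVo was 0.00106 for HSPD1 and 0.00157 for HSP90AA1. HSPB1 became called at -0.221 (edgeR adjusted p = 0.0227). A block was not run for HCT116 or across lines, since the vector columns carry numbers from their headings that no title ties to a sample. HSPA1A and HSPE1, at 7 to 138 counts per library, have the widest intervals among the members. Levels with the lengths of GENCODE v29 were computed after seeing the data.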

Other observations

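For each member, the gene outside all lists whose log2 CPM (prior count 2, centred within each line) was most alike over the 12 libraries was looked up among 10045 genes, as a description of libraries that share depth and group. BAG3 was most like AHDC1 (Pearson r 0.99) and HSPA1B most like OGFR (0.978). HSPA8 was nearest to PHF5A (0.967), HSPD1 to MRPL50 (0.965) and FKBP4 to EIF3B (0.95). Each value is the highest of 10045 correlations, so a high r follows from the search and no shared function is read from it. HSP90AA1 was nearest to INTS9 (0.952), HSPE1 to OARD1 (0.933), DNAJB1 to FANCA (0.916), HSPH1 to RASSF1 (0.907) and HSPA1A to FAM32A (0.864).

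In the sum of both changes, added after values were seen, 6 of the 14 TRiC and prefoldin genes were called higher and 0 lower by edgeR, with 6.94% of all genes called higher, while the median of this list was 0.15 with OE in HCT116 and 0.03 with KD in LoVo. Among the mitochondrial chaperones 3 of 11 were called higher and 0 lower in the sum, with list medians of 0.06 with OE in HCT116 and 0.16 with KD in LoVo. No rule set beforehand picked these lists, and the other lists are not given for the sum. Over all genes the split of calls in the sum turned on scaling, at 1263 higher and 1385 lower, against 807 and 1755 with total counts.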
